A study of Mus musculus with 35 samples.

Results

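The genes described here are 40 targets and partners of the amino acid response: 4 transcription factors and regulators (Atf4, Atf5, Ddit3, Trib3), 10 enzymes of amino acid and one-carbon synthesis, 6 genes for amino acid uptake and other ATF4 targets, and 20 genes for cytosolic aminoacyl-tRNA synthetase subunits. They were chosen by name, and 40 of 40 were found among the 20261 genes of the deposited table. NMuMG is a mouse mammary gland epithelial cell line that is widely used to follow the epithelial to mesenchymal transition. The cells were labelled WT with strain E9, and all carried the same protocol note of TGF-β at 2 ng/ml, with TGF-β and medium renewed at intervals of 2 days. One arm was labelled DMSO, the solvent control, and the other JNKi. The labels do not name the compound behind JNKi or its dose. Each arm was sampled at 24 h, 48 h, 72 h, 96 h and 7 d, with 2 libraries per arm and time, 20 in all, and neither arm had an untreated sample. Nothing in the labels ties replicates to separate cultures. A p-value here therefore reflects how far the libraries spread, which may be technical. A further time course of 15 libraries was not analysed here.

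ATF4 is a transcription factor whose protein is made mainly through translation: when the initiation factor eIF2 is phosphorylated, most protein synthesis slows while the Atf4 mRNA is translated more. ATF4 then binds C/EBP-ATF response elements and drives genes that make, import and recycle amino acids and that charge tRNAs. Aminoacyl-tRNA synthetases join each amino acid to its tRNA. Cytosolic and mitochondrial enzymes are mostly separate gene products, and many of the cytosolic enzyme genes are known ATF4 targets. DDIT3 (CHOP) and TRIB3 lie downstream of ATF4 and act later in the same response.

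Values below are the authors' normalized reads, in which each library's counts are divided by 1 factor, and log2 changes are on the scale log2(value + 1), fitted by limma over the 20 libraries. A gene is said to have risen or fallen where the Benjamini-Hochberg adjusted p over 13896 tested genes was under 0.05. Library depth ran from 9.5 to 48.6 M reads. Epithelial markers were present: Krt8 lay between 44774 and 209386 and Cdh1 between 3746 and 13911, while Epcam was listed at 0 in 15 libraries and did not exceed 12.6. Of 15 markers of leukocytes, endothelium, adipocytes and fibroblasts found in the table, the highest was Cdh5 at up to 371.5, and Pdgfra did not exceed 42.0. The summed level of the 6 epithelial markers was between 325748 and 373094 at 24 h, between 136226 and 161550 at 96 h and between 101488 and 170321 at 7 d. The sum of 5 leukocyte markers was between 4.2 and 13.2 up to 96 h and between 23.0 and 60.9 at 7 d, and that of 3 endothelial markers was between 59.1 and 256.6 up to 96 h and between 296.1 and 399.2 at 7 d. The part of these sums in the results below was not tested, and in bulk samples fewer cells of a type and less RNA per cell cannot be told apart.

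The replicates stood apart most in 2 groups. In JNKi at 72 h, replicate 2 was above replicate 1 in 35 of the 40 genes, by a median of 0.35 on the log2 scale, and by over 0.5 in 14 of them. Over 9605 well-measured genes (mean 200 or more) the median of that difference was -0.03, and 2.01% of genes were higher by over 0.5. In DMSO at 7 d, replicate 2 was above replicate 1 in 6 of the 40 genes, with a median difference of -0.31 against 0 over the 9605 genes. Counts and medians that rest on these libraries are given below also without 1 of them where that changed the value by over 1.5 times. A smaller gap was present in DMSO at 24 h, the baseline over time, where replicate 2 was higher in 34 of the 40 genes. The median there was 0.13, against 0.03 over the 9605 genes. In JNKi at 48 h replicate 2 was higher in 31, by a median of 0.1.

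The response element has the core TGATGNAA, where N is any base. It was searched on both strands in RefSeq promoter windows of GRCm38.p6 that run from 250 bases before to 50 bases after each annotated start. The core was found in 4.51% of 27025 genes in that set. Of the 40 genes here, 30 were matched by symbol, and 11 of the 30 (36.7%) held the core: Trib3, Asns, Pck2, Slc7a11, Chac1, Vldlr, Aars, Gars, Iars, Tars and Yars. By class these were 1 of 4 matched regulators, 2 of 9 synthesis enzymes, 3 of 5 uptake and other targets and 5 of 12 synthetases. The following windows are printed 5′ to 3′ along the gene's strand, with the core or its reverse complement in capitals. Asns and Slc7a11 are shown as classical amino acid response genes, Trib3, Chac1, Vldlr and Yars because their levels also differed between the arms at 7 d, and Aars as the synthetase with the core that rose most.
Asns, chr6:7693210-7693258, minus strand: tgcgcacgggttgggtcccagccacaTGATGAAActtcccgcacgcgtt
Slc7a11, chr3:50443627-50443705, minus strand: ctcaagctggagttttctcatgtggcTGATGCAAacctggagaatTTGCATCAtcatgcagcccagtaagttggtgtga
Trib3, chr2:152344028-152344057, minus strand: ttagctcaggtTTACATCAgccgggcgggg
Chac1, chr2:119351023-119351082, plus strand: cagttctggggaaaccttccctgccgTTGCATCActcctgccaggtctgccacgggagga
Vldlr, chr19:27216794-27216853, plus strand: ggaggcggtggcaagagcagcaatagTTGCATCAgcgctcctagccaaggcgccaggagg
Aars, chr8:111033704-111033763, plus strand: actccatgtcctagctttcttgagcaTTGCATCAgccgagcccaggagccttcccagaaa
Yars, chr4:129189895-129189924, plus strand: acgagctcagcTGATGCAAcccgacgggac

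The Asns core starts 23 bases before the annotated start, on the coding strand. Slc7a11 has a pair of cores that face each other, starting 66 and 47 bases before the start. The Chac1, Vldlr and Aars cores lie on the opposite strand, 193, 200 and 112 bases before the start. The Trib3 and Yars cores lie 14 and 3 bases after it. Aars holds another match 9 bases after its start. A match is only a match of letters. The submitters' processing notes name another build (mm9), so the coordinates belong to the RefSeq set and not to the deposited table.

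In vehicle-treated cells most of these genes lay near their 24 h level until 72 h and stood higher at 96 h. Relative to 24 h, the median log2 change of the 40 genes was -0.03 (48 h), -0.11 (72 h), 0.74 (96 h) and 0.33 (7 d). The 20 regulators, enzymes and transporters moved most, with a median of 1.27 at 96 h and 0.99 at 7 d. The 20 synthetase genes had medians of 0.49 and 0.16. Without replicate 1 of DMSO at 7 d, the medians at 7 d were 0.16 for the 40 genes, 0.62 for the regulators, enzymes and transporters and 0.03 for the synthetases, and without replicate 2 that of the synthetases was 0.29. In 29 of the 40 genes the highest DMSO mean was at 96 h, which was not counted over all genes. Between 24 h and 96 h, 31 of the 40 rose and 5 fell, where 32.7% of all tested genes rose and 30.5% fell, and where the median over all genes was 0.07. Stc2 was the 1 member with 24 h means under the filter in both arms, so that it was tested through its late groups alone. Without it, 30 of 39 rose.

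**Figure D1:**
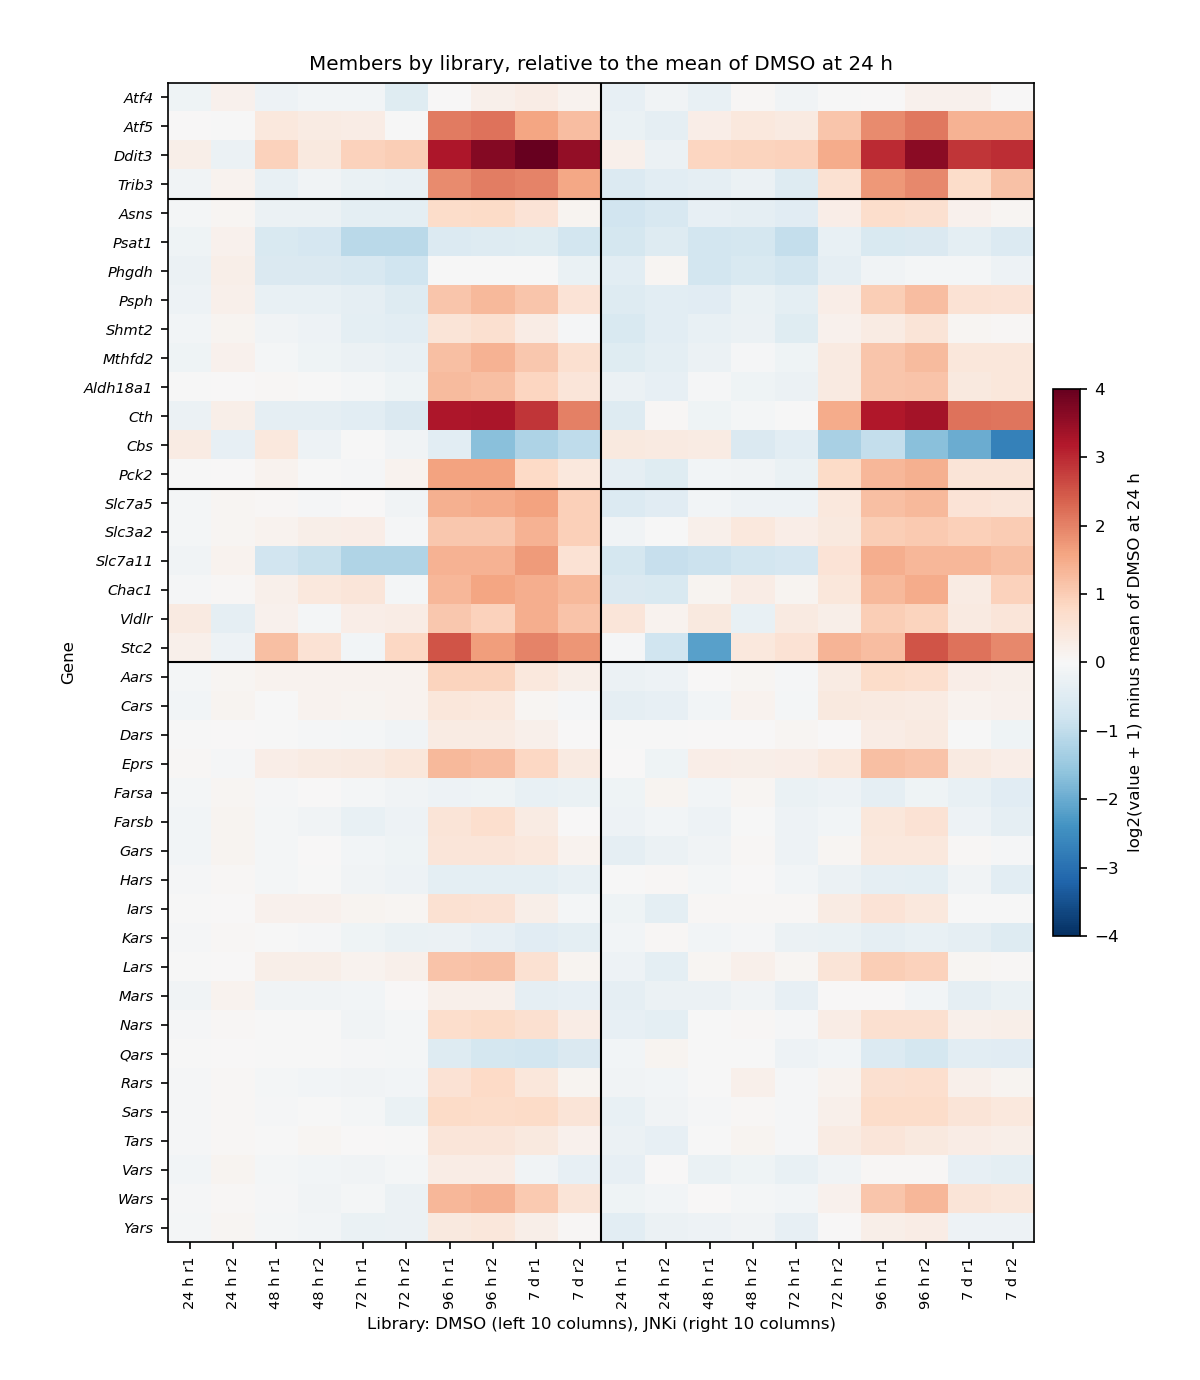
Each cell is the log2(value + 1) of a gene (rows, grouped by role) in a library (columns, DMSO left and JNKi right), minus that gene's mean in DMSO at 24 h. The columns at 96 h are red for most genes in both arms, and JNKi replicate 2 at 72 h is redder than replicate 1 beside it.

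Among the regulators, the Atf4 mRNA itself did not pass the test. Its 2 DMSO libraries read 14998 and 18756 (24 h), 14652 and 15435 (48 h), 15697 and 12025 (72 h), 17081 and 19352 (96 h), then 20438 and 18615 (7 d). The values at 96 h overlap those at 24 h, and the log2 change was 0.12 ± 0.14 (SE; adjusted p = 0.483). The 3 other regulators rose. Ddit3, which encodes the pro-apoptotic factor CHOP, read 170.1 and 122 (24 h), 277 and 189.5 (48 h), 274 and 285 (72 h), 1352 and 1868 (96 h), then 2334 and 1665 (7 d). Both late groups lie above every earlier DMSO library, and its log2 change at 96 h was 3.45 ± 0.25 (SE; adjusted p = 1.08e-08), a 10.9-fold rise on the log2(value + 1) scale. Of the exonic bases of Ddit3, 9.1% are shared with genes on the opposite strand, Mars among them. Trib3, a pseudokinase that is induced by and restrains ATF4 and CHOP, read 1788 and 2134 (24 h), 1578 and 1762 (48 h), 1609 and 1579 (72 h), 7177 and 8058 (96 h), then 7736 and 5734 (7 d), and rose by 1.96 ± 0.24 (SE; adjusted p = 2.95e-06) at 96 h. Atf5, a relative of ATF4 that is also controlled by translation, read 1096 and 1067 (24 h), 1458 and 1369 (48 h), 1329.6 and 1060.4 (72 h), 4564 and 4883 (96 h), then 3254 and 2554 (7 d), and rose by 2.13 ± 0.18 (SE; adjusted p = 3.94e-08).

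Of the 10 synthesis enzymes, 7 rose at 96 h and 2 fell, where 32.7% of all tested genes rose and 30.5% fell. Phgdh did not pass the test. Cth, which makes cysteine from cystathionine, showed the largest rise of the class. It read 267 and 375 (24 h), 249 and 245 (48 h), 237 and 213 (72 h), 2955 and 3044 (96 h), then 2292 and 1269 (7 d), a log2 change of 3.24 ± 0.34 (SE; adjusted p = 4.41e-07) at 96 h. Both 96 h libraries stood above all others of the arm, while the 2 libraries at 7 d lay far apart. Cbs, the enzyme that acts just before CTH in the transsulfuration pathway, went the other way with 461 and 288 at 24 h and 273 and 114 at 96 h. Its log2 change was -1.04 ± 0.40 (SE; adjusted p = 0.0335). Without replicate 2 of DMSO at 96 h it was -0.42 with an adjusted p of 0.434, and without replicate 1 of that group -1.66. It was also not called by DESeq2, with no filter on low values, or without replicate 1 of DMSO at 24 h.

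The 3 enzymes of the serine pathway differed in their calls. Phgdh, which takes the first step, read 20514 and 28798 (24 h), 16279.5 and 16298 (48 h), 15474 and 13924 (72 h), 24101 and 23820.2 (96 h), then 23926 and 20198 (7 d), and its log2 change at 96 h was -0.02 ± 0.16 (SE; adjusted p = 0.921). Psat1, the second step, read 9244 and 11714 (24 h), 6852 and 6525 (48 h), 4938 and 4927 (72 h), 7193 and 7308 (96 h), then 7394 and 6246 (7 d). It was lowest at 72 h, and at 96 h it was still below 24 h, with a log2 change of -0.52 ± 0.15 (SE; adjusted p = 0.00739). Without replicate 2 of DMSO at 24 h that fall did not pass the test (-0.35, adjusted p = 0.112). Psph, the last step, read 1524 and 2021 (24 h), 1433 and 1443 (48 h), 1383 and 1216 (72 h), 3769 and 4272 (96 h), then 3794 and 2558 (7 d), and rose by 1.19 ± 0.19 (SE; adjusted p = 4.05e-05). Of its annotated exonic bases, 26.1% are shared with Cct6a on the opposite strand, and whether reads were counted by strand is not given in the sources used here.

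The mitochondrial one-carbon enzymes Shmt2 and Mthfd2 both rose at 96 h. Shmt2 read 7616 and 9021 (24 h), 7458 and 7158 (48 h), 6374 and 6191 (72 h), 11921 and 12904 (96 h), then 10166 and 7948 (7 d), a log2 change of 0.58 ± 0.16 (SE; adjusted p = 0.00438), which was 0.46 with an adjusted p of 0.0521 without replicate 1 of DMSO at 24 h. Mthfd2 read 3514 and 4476 (24 h), 3720.1 and 3502 (48 h), 3349 and 3224 (72 h), 9182 and 10460.5 (96 h), then 8360.1 and 6241 (7 d), and rose by 1.30 ± 0.16 (SE; adjusted p = 2.15e-06). Asns, which makes asparagine, read 6216 and 7008 (24 h), 5652 and 5666 (48 h), 4980.1 and 5028 (72 h), 11088 and 11262 (96 h), then 9590.5 and 7154 (7 d), and rose by 0.76 ± 0.16 (SE; adjusted p = 0.00056). The Asns libraries at 96 h lay close to each other and above every other DMSO library. Aldh18a1, which starts proline synthesis, rose by 1.24 ± 0.14 (SE; adjusted p = 1.19e-06). Pck2, the mitochondrial PEP carboxykinase, rose by 1.59 ± 0.21 (SE; adjusted p = 4.79e-06).

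Of the genes for uptake and other targets, the 5 beside Stc2 rose at 96 h, where 32.7% of all tested genes did. Their log2 changes ran from 1.00 to 1.46. Slc7a5, the LAT1 carrier of large neutral amino acids, read 6096 and 6699 (24 h), 6580.2 and 6173 (48 h), 6485 and 5777 (72 h), 17058 and 17773 (96 h), then 19696 and 12499 (7 d), and rose by 1.45 ± 0.17 (SE; adjusted p = 2.25e-06). Slc3a2, the heavy chain that LAT1 and xCT need to reach the membrane, read 9965 and 11084 (24 h), 11684 and 12247 (48 h), 12576 and 10153 (72 h), 21994 and 22323 (96 h), then 27753 and 20523 (7 d), and rose by 1.08 ± 0.13 (SE; adjusted p = 1.65e-06). Slc7a11, the xCT cystine importer, had its lowest DMSO values at 72 h. It read 422 and 518 (24 h), 273 and 254 (48 h), 203 and 203 (72 h), 1219.9 and 1237 (96 h), then 1509.8 and 698 (7 d), and its change at 96 h was 1.39 ± 0.31 (SE; adjusted p = 0.000905). At 7 d the 2 libraries lay far apart, replicate 1 above and replicate 2 below both libraries of 96 h.

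Chac1, which breaks down glutathione, read 1723 and 1864 (24 h), 2051 and 2384 (48 h), 2508 and 1686 (72 h), 4528 and 5402 (96 h), then 4940.0 and 4415 (7 d), and rose by 1.46 ± 0.19 (SE; adjusted p = 4.44e-06). Vldlr, a lipoprotein receptor, read 520.0 and 309.9 (24 h), 456 and 382 (48 h), 479 and 491 (72 h), 849.6 and 759.8 (96 h), then 1099 and 892 (7 d), and rose by 1.00 ± 0.22 (SE; adjusted p = 0.000783). Without replicate 2 of DMSO at 24 h the Vldlr change was 0.63. Stc2, which encodes stanniocalcin-2, stayed between 2.9 and 24.8 normalized reads in the DMSO libraries. Its change of 2.09 ± 0.68 (SE; adjusted p = 0.0131) did not pass the test without replicate 2 of DMSO at 24 h or without replicate 1 of DMSO at 96 h, and was 1.20 with a pseudocount of 8.

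**Figure D2:**
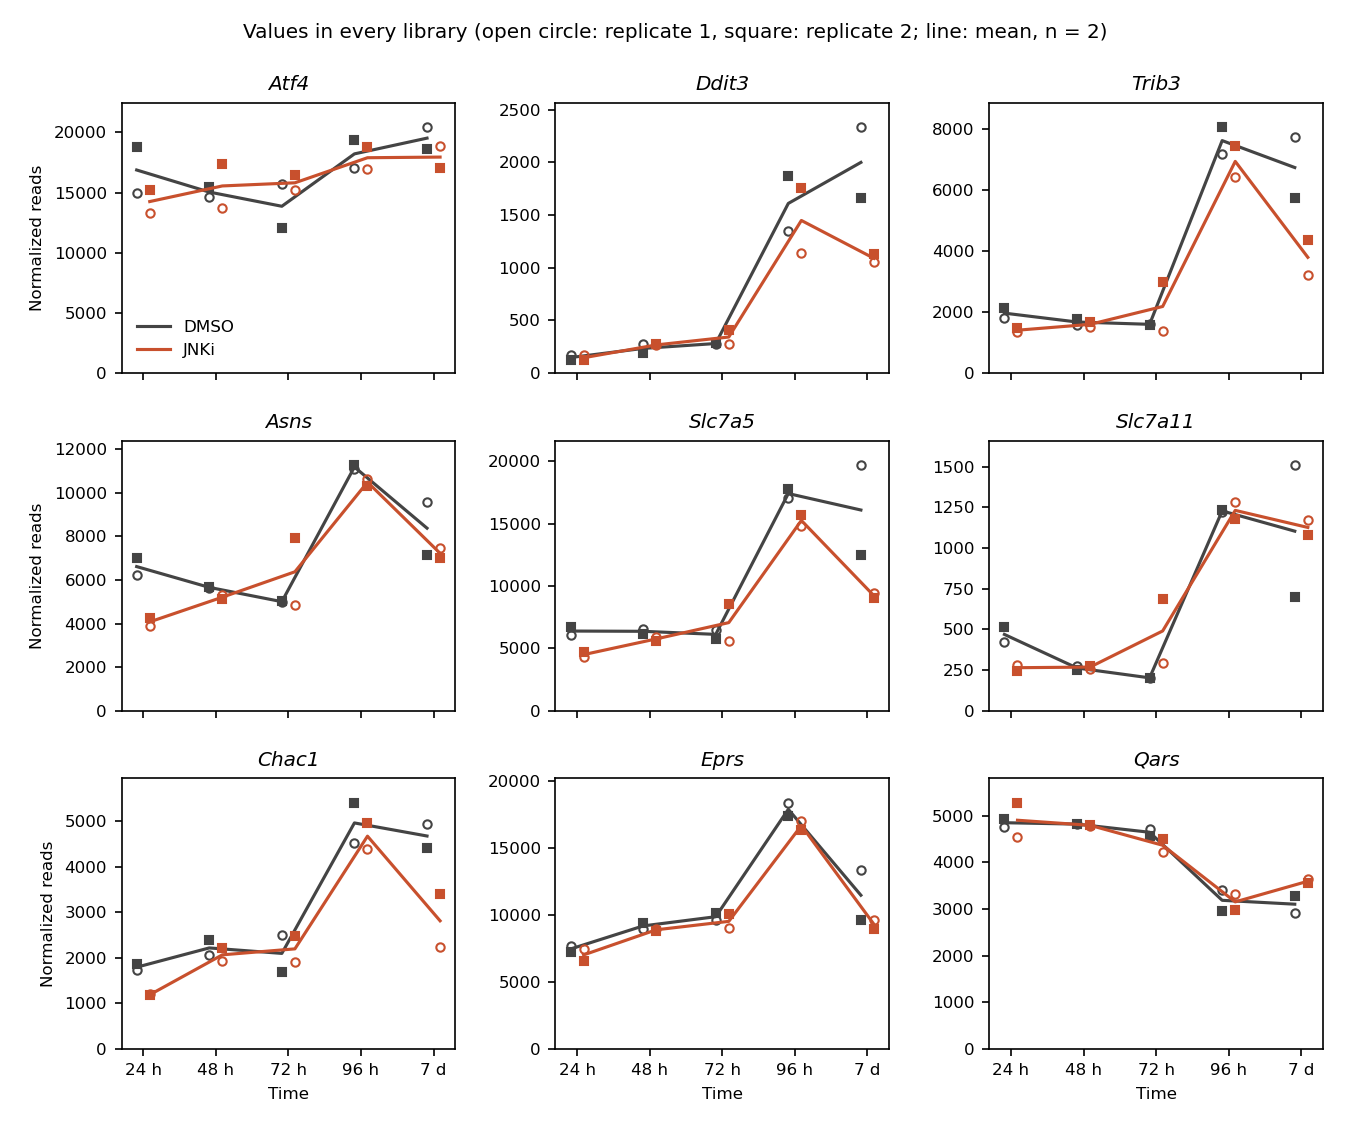
Normalized reads (y axes, from 0) of 9 genes at the 5 times (x axis) in DMSO (grey) and JNKi (red), with open circles for replicate 1, squares for replicate 2 and lines through the means of the 2. Ddit3, Trib3, Slc7a5, Chac1 and Eprs climb between 72 h and 96 h in both arms, and Qars declines. Atf4 moves less than these 5 on the log2 scale. Relative to 24 h it stands at -0.29 (72 h) and 0.12 (96 h) in DMSO, and at 0.15 and 0.33 in JNKi.

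Most, but not all, cytosolic synthetase genes joined the rise. At 96 h, 15 of the 20 genes rose and 3 fell, where 32.7% of all tested genes rose and 30.5% fell. The other 2 (Farsa and Mars) did not pass the test. Wars, for tryptophan, showed the largest rise. It read 2107 and 2253 (24 h), 2116 and 1960.4 (48 h), 2082 and 1846 (72 h), 5448 and 5651 (96 h), then 4538 and 3148 (7 d), with a log2 change of 1.35 ± 0.13 (SE; adjusted p = 2.79e-07). Eprs, the bifunctional enzyme for glutamate and proline, read 7658 and 7253 (24 h), 8934 and 9426 (48 h), 9612 and 10126 (72 h), 18362 and 17422 (96 h), then 13332 and 9616 (7 d), and rose by 1.26 ± 0.12 (SE; adjusted p = 1.04e-07). Both of its libraries at 96 h stood above all other DMSO libraries. Lars, for leucine, rose by 1.14 ± 0.13 (SE; adjusted p = 1.52e-06). Aars, for alanine, rose by 0.89 ± 0.10 (SE; adjusted p = 1.22e-06). Of its exonic bases, 23.1% are shared with Exosc6 on the same strand. Sars, for serine, rose by 0.74 ± 0.10 (SE; adjusted p = 1.02e-05), and Nars, for asparagine, by 0.74 ± 0.11 (SE; adjusted p = 1.81e-05).

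The 3 synthetases that fell were those for glutamine, histidine and lysine. Qars read 4770.2 and 4933 (24 h), 4828 and 4816 (48 h), 4718 and 4576 (72 h), 3415 and 2958 (96 h), then 2924 and 3283 (7 d), and fell with a log2 change of -0.61 ± 0.09 (SE; adjusted p = 1.86e-05). No late Qars library reached the lowest of the 6 earlier ones. Hars, of whose exonic bases 9.8% are shared with Hars2 on the opposite strand, changed by -0.39 ± 0.08 (SE; adjusted p = 0.000727). Kars read 4660.5 and 4879.7 (24 h), 4691 and 4576 (48 h), 4192 and 3947 (72 h), 4026 and 3816 (96 h), then 3503 and 3654 (7 d), and changed by -0.28 ± 0.08 (SE; adjusted p = 0.00355). The phenylalanine enzyme is built from a pair of different subunits. Farsb rose by 0.60 ± 0.11 (SE; adjusted p = 0.000144), while Farsa read 2488 and 2766 at 24 h and 2293 and 2323 at 96 h, a log2 change of -0.18 ± 0.10 (SE; adjusted p = 0.11). The difference between the 2 subunits was not tested. The remaining rises were between 0.28 (Vars) and 0.69 (Rars), and that of Vars did not pass the test when either DMSO library at 96 h or replicate 1 at 24 h was left out.

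The genes with a response element core in the promoter window were among those that rose. At 96 h, 11 of the 11 rose, where 32.7% of all tested genes and 31 of the 40 did. Their log2 changes ran from 0.42 (Yars) to 1.96 (Trib3), with a median of 0.89. How many of all genes with the core rose was not counted. The 40 were picked by name as parts of this response, so the count is no test of the core. The 10 genes without a matched window enter neither group. Of the 19 matched genes without the core, 12 rose, 4 fell and 3 did not pass the test, with a median of 0.60. The largest rise of all, that of Ddit3 at 3.45, was in a gene without these letters in the window, which says nothing of the factor's binding elsewhere.

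Against 24 h, 23 of the 40 were higher at 7 d and 7 were lower, where 32.0% of all genes were higher and 28.0% lower. Without Stc2, 22 of 39 were higher. The 3 regulators that rose at 96 h were also higher at 7 d than at 24 h, Ddit3 by 3.76 ± 0.25 (SE; adjusted p = 6.91e-09). So were the 5 uptake and target genes beside Stc2, Slc3a2 by 1.18 ± 0.13 (SE; adjusted p = 9.71e-07). Slc7a11 rose by 1.13 ± 0.31 (SE; adjusted p = 0.00486), which was 0.58 with an adjusted p of 0.137 without replicate 1 of DMSO at 7 d. Stc2 was also called higher, but not by DESeq2 or without replicate 2 of DMSO at 24 h or either DMSO library at 7 d. Of the synthetases, 9 were higher and 5 (Farsa, Hars, Kars, Mars and Qars) lower, though Mars (-0.23, adjusted p = 0.129) and Farsa were not called without replicate 2 of DMSO at 24 h, and Farsa not without either DMSO library at 7 d. Of the 9 rises, those of Aars, Gars, Lars, Rars and Tars were not called without replicate 1 of DMSO at 24 h, without replicate 1 of DMSO at 7 d, or with only the groups compared in the fit. Without replicate 1 of DMSO at 7 d the change of Lars was 0.12 in place of 0.36 and that of Rars 0.09 in place of 0.27. With that library left out the median change of the 20 synthetases was 0.03, where that of all genes was 0.05. The Gars rise was lost under 11 of 29 alternatives. The largest synthetase rises at 7 d were those of Wars at 0.79 ± 0.13 (SE; adjusted p = 0.000103) and Sars at 0.64 ± 0.10 (SE; adjusted p = 6.54e-05), and the largest falls those of Qars at -0.65 ± 0.09 (SE; adjusted p = 1.52e-05) and Kars at -0.41 ± 0.08 (SE; adjusted p = 0.00019). Sars read 11029 and 11948 (24 h), 11112 and 11445 (48 h), 10972 and 9607 (72 h), 19480.3 and 18950.0 (96 h), then 19566 and 16345 (7 d), so its values at 7 d lay close to those at 96 h. The counts of higher and lower genes depended on single libraries. Without replicate 1 of DMSO at 7 d the median change of the 40 genes was 0.16, where that of all genes was 0.05.

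The classes were not tested against each other. Set directly against 96 h, 17 of the 40 were lower at 7 d and 0 higher, where 15.5% of all genes were lower and 21.0% higher. The synthetases gave 11 of these, Lars with the largest change at -0.78 ± 0.13 (SE; adjusted p = 0.000352) and Eprs next at -0.66 ± 0.12 (SE; adjusted p = 0.000441). Of the synthesis enzymes 5 were lower, Pck2 most at -0.97 ± 0.21 (SE; adjusted p = 0.00184), which read 7914 and 7905 at 96 h and 4573 and 3544 at 7 d. The 17th gene was the regulator Atf5, at -0.71 ± 0.18 (SE; adjusted p = 0.00535), which did not pass without replicate 2 of DMSO at 7 d. None of the 6 uptake and other target genes passed the test in this comparison, nor at an unadjusted p under 0.05, though Slc7a5 was called lower without replicate 1 of DMSO at 7 d. The count depended on single libraries: it was 10 without replicate 2 of DMSO at 96 h and 7 (6 synthetases and Pck2) without replicate 2 of DMSO at 7 d, in which Eprs changed by -0.42.

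**Figure D3:**
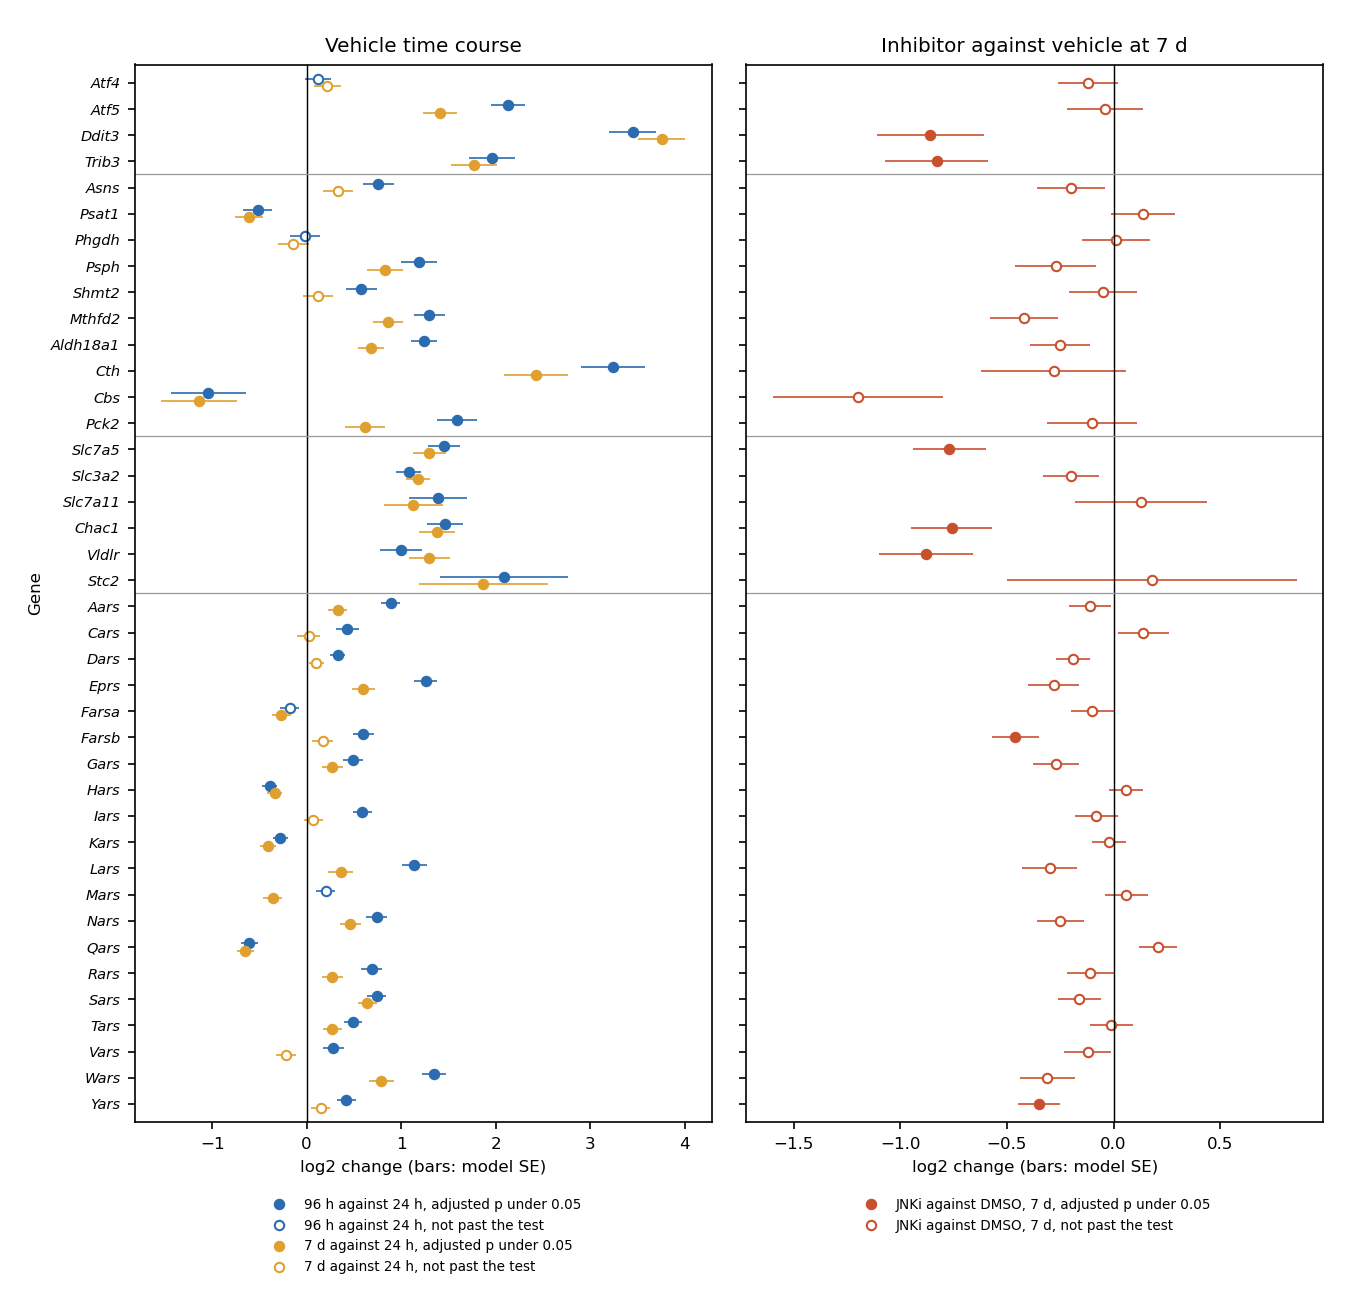
Log2 changes (x axes, bars are the standard error of the fit) of the 40 genes (rows, grouped by role) over time in DMSO (left) and for JNKi against DMSO at 7 d (right). Filled points passed the test. In the left panel the 96 h points of most synthetases lie to the right of their 7 d points, and in the right panel 7 points are filled, from -0.88 (Vldlr) to -0.35 (Yars).

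Further genes linked to ATF4 also rose in the vehicle arm. Of 28 further ATF4-linked genes, 23 rose at 96 h and 2 fell, against 32.7% and 30.5% of all tested genes. The largest rises were those of Aldh1l2, a mitochondrial folate enzyme, at 3.11 ± 0.73 (SE; adjusted p = 0.00135), and Atf3, a stress-induced transcription factor, at 2.77 ± 0.40 (SE; adjusted p = 1.65e-05). The genes of the eIF2 kinases, eIF2 and its regulators were divided, 7 up and 7 down of 16. Ppp1r15a, which directs the phosphatase that removes phosphate from eIF2, rose by 2.27 ± 0.55 (SE; adjusted p = 0.00183), and Impact, an inhibitor of the kinase GCN2, by 1.48 ± 0.20 (SE; adjusted p = 6.05e-06). Mitochondrial synthetase genes gave 6 rises and 3 falls among 17, a share of rises near that of all genes, with the largest rise in Mars2 at 0.72 ± 0.15 (SE; adjusted p = 0.000443).

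Of the 3 scaffold genes of the multisynthetase complex, Aimp2 fell by 0.33 and none rose. Over all tested genes 32.7% rose and 30.5% fell. The ER chaperone genes, which belong mainly to the ATF6 and XBP1 arms of the unfolded protein response, gave 4 rises and 8 falls of 14. Sdf2l1 changed by -1.32 ± 0.15 (SE; adjusted p = 1.51e-06) and Manf by -1.23 ± 0.15 (SE; adjusted p = 2.43e-06). Among 14 translation factor genes 3 rose and 8 fell, Eef1a1 with -0.93 ± 0.14 (SE; adjusted p = 3.24e-05) and Eef1d with -0.77 ± 0.11 (SE; adjusted p = 1.43e-05). The list medians at 96 h were 1.43 for the further ATF4-linked genes, 0.11 for mitochondrial synthetases, -0.06 for the eIF2 list, -0.36 for ER chaperones and -0.30 for translation factors.

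The rise was also present in the inhibitor arm. The highest JNKi mean was at 96 h in 32 of the 40 genes, again without a count over all genes. Between 24 h and 7 d with JNKi, 26 of the 40 were higher and 5 lower, where 31.7% of all genes were higher and 26.3% lower. Without Stc2, 25 of 39 were higher. Ddit3 read 168 and 121 (24 h), 261 and 271 (48 h), 277 and 406 (72 h), 1138 and 1758 (96 h), then 1051 and 1127 (7 d) in the JNKi libraries. Slc7a5 read 4332 and 4683 (24 h), 5952 and 5582 (48 h), 5600.0 and 8547 (72 h), 14834 and 15688 (96 h), then 9430.1 and 9018 (7 d). As in DMSO, the values at 96 h stood above every library up to 72 h.

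The comparisons between arms use the same DMSO libraries as those over time, so they are not independent of them. At 24 h the JNKi libraries read lower than DMSO for most of these genes. In the main fit, which ignores replicate numbers, no gene of the transcriptome passed the adjusted test. The difference was negative in 36 of the 40, with a median of -0.28 against 0.00 over all genes. None of the 40 was called, as 0% of all genes were. At an unadjusted p under 0.05, 17 of the 40 were lower and 0 higher, where 4.39% of all genes differed in either direction. Asns read 6216 and 7008 with DMSO and 3909.7 and 4247 with JNKi, a log2 difference of -0.70 ± 0.16 (SE; adjusted p = 0.416). The JNKi libraries at 72 h enter this test only through the shared estimate of the spread. Without replicate 1 or replicate 2 of that group, Asns passed with an adjusted p of 0.0436 or 0.0453. By edgeR and by DESeq2 on the recovered reads, 0 of the 40 were called at 24 h, 48 h, 72 h or 96 h. With replicate number as a block within each time, limma called Asns and Psat1 lower at 24 h (adjusted p = 0.0273 and 0.0331). Over all genes that fit called 3 lower and 16 higher at 24 h.

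Several other genes at 24 h had 2 JNKi values below both DMSO values. How many of all genes did so was not counted, so this is not read as a trait of these genes. Slc7a11 read 422 and 518 with DMSO and 284 and 246 with JNKi (log2 difference -0.82 ± 0.31 SE, adjusted p = 1). Psat1 read 9244 and 11714 with DMSO and 6324 and 7348 with JNKi (log2 difference -0.61 ± 0.15 SE, adjusted p = 0.658). Chac1 read 1723 and 1864 with DMSO and 1198 and 1178 with JNKi (log2 difference -0.59 ± 0.19 SE, adjusted p = 1). Ddit3 did not share this, with 170.1 and 122 in DMSO against 168 and 121 in JNKi.

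At 48 h the arms lay close together: the median difference was -0.04, none of the 40 was called where 0% of all genes were, and 1 (Stc2) had an unadjusted p under 0.05 where 3.75% of all genes did. At 72 h none was called where 0.072% of all genes were, and 7 had an unadjusted p under 0.05 where 8.10% did. The difference at 72 h was positive in 32 of the 40 with both JNKi libraries (median 0.17), and in 19 without replicate 2 (median -0.02). Cth shows the gap between the 2 JNKi libraries at 72 h, with 310.3 and 886, beside 237 and 213 in DMSO. Slc7a11 read 292 and 690.3 and Trib3 1369.9 and 2988 in the same pair. With replicate number as a block within each time, Psat1, Cth and Slc7a11 were called higher at 72 h. Over all genes that fit called 127 higher and 207 lower. Without replicate 1 of JNKi at 72 h, Atf5, Psat1, Cth, Pck2 and Slc7a11 were called higher than DMSO, Cth with 1.98 and an adjusted p of 0.00617.

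At 96 h, where the response was at its height, the difference was negative in 37 of the 40 but small, with a median of -0.09 and a range from -0.26 to 0.03. None of the 40 was called where 0.0072% of all genes were, and 2 had an unadjusted p under 0.05 where 4.87% did. Averaged over 24 h to 96 h, none was called where 0.345% of all genes were, and 4 had an unadjusted p under 0.05 where 11.7% did.

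**Figure D4:**
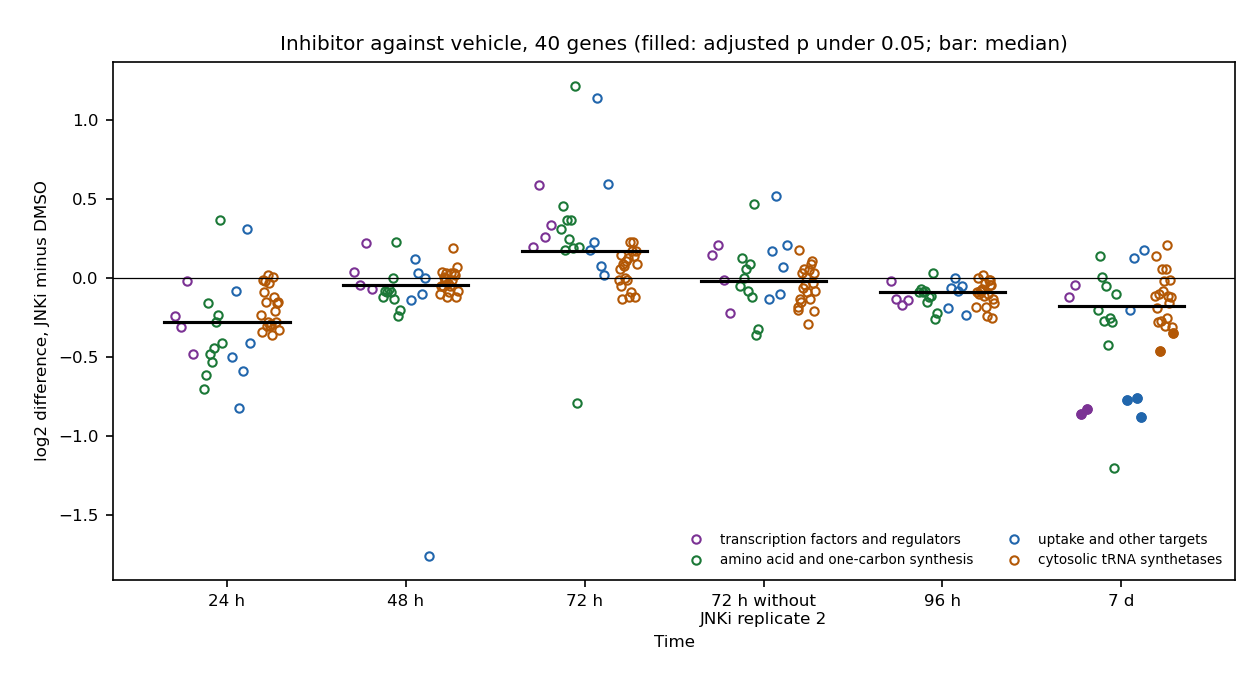
Log2 difference between JNKi and DMSO (y axis) for each of the 40 genes at each time (x axis), coloured by role, with 72 h also shown without JNKi replicate 2. Filled points passed the test and bars are medians, which run from -0.28 at 24 h through 0.17 at 72 h (-0.02 without that library) to -0.18 at 7 d.

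At 7 d, 7 of the 40 genes were lower with JNKi and 0 higher, where 5.33% of all genes were lower and 4.84% higher. The 7 were Ddit3 and Trib3, the uptake and target genes Slc7a5, Chac1 and Vldlr, and the synthetase genes Farsb and Yars. Ddit3 read 2334 and 1665 with DMSO and 1051 and 1127 with JNKi, a log2 difference of -0.86 ± 0.25 (SE; adjusted p = 0.0407). Trib3 read 7736 and 5734 with DMSO and 3222 and 4359.7 with JNKi, a difference of -0.83 ± 0.24 (SE; adjusted p = 0.0385). Both regulators stood high in DMSO at this time. Slc7a5 read 19696 and 12499 with DMSO and 9430.1 and 9018 with JNKi (log2 difference -0.77 ± 0.17 SE, adjusted p = 0.0112). Chac1 read 4940.0 and 4415 with DMSO and 2232 and 3394 with JNKi (log2 difference -0.76 ± 0.19 SE, adjusted p = 0.017). In each of these genes both JNKi libraries lay below both DMSO libraries, which was not counted over all genes.

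Vldlr read 1099 and 892 with DMSO and 510.2 and 563 with JNKi, a difference of -0.88 ± 0.22 (SE; adjusted p = 0.0172). Farsb, which shares 11.3% of its exonic bases with Sgpp2 on the opposite strand, read 2199.9 and 1763 with DMSO and 1517 and 1358 with JNKi (log2 difference -0.46 ± 0.11 SE, adjusted p = 0.0145). Yars, for tyrosine, read 3875 and 3395 with DMSO and 2839 and 2854 with JNKi (log2 difference -0.35 ± 0.10 SE, adjusted p = 0.0415). These groups did not overlap either, again without a count over all genes. The median over the 40 was -0.18 against 0.02 over all genes, and was -0.03 without replicate 1 and -0.35 without replicate 2 of DMSO at 7 d. Of the 7, Slc7a5 had no promoter window to search. Trib3, Chac1, Vldlr and Yars hold the response element core, and Ddit3 and Farsb do not, where 11 of the 30 matched members and 4.51% of all genes in the set hold it.

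Other genes did not pass the test at 7 d. Slc3a2, the partner chain of LAT1, read 27753 and 20523 with DMSO and 20235 and 21257 with JNKi, a difference of -0.20 ± 0.13 (SE; adjusted p = 0.323). Slc7a11 read 1509.8 and 698 with DMSO and 1173 and 1081 with JNKi, with the JNKi values between the 2 DMSO values. Asns differed by -0.20 ± 0.16 (SE; adjusted p = 0.456) and Atf4 by -0.12 ± 0.14 (SE; adjusted p = 0.618). The 2 largest positive synthetase differences were those of Qars at 0.21 ± 0.09 (SE; adjusted p = 0.139) and Cars at 0.14 ± 0.12 (SE; adjusted p = 0.48). Cars read 6228 and 5642 with DMSO and 6474 and 6627 with JNKi. Cbs had the largest difference of any of the 40, -1.20 ± 0.40 (SE; adjusted p = 0.0673), on low values of 153 and 178 with DMSO and 91.5 and 55.3 with JNKi, with the JNKi libraries below both DMSO libraries. It was called lower with only the groups compared in the fit (adjusted p = 0.00585) and without replicate 1 or 2 of DMSO at 96 h (0.0409 and 0.0407), and it was not called by edgeR (0.0777) or DESeq2 (0.0975).

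Each of the 7 calls at 7 d was lost when at least 1 library of that time was left out. Over all tested genes, too, fewer were called lower without replicate 1 of DMSO or without either JNKi library of that time. Without replicate 2 of DMSO slightly more were. Without replicate 1 of DMSO at 7 d none of the 40 was lower, and the difference was then -0.61 for Ddit3, -0.61 for Trib3, -0.44 for Slc7a5, -0.68 for Chac1, -0.73 for Vldlr, -0.30 for Farsb and -0.25 for Yars. Without replicate 2 of DMSO at 7 d the median difference of the 40 was -0.35, where that of all genes was 0.02. The median of the 40 was -0.21 without JNKi replicate 1 and -0.11 without JNKi replicate 2. Those of all genes were then 0.02 and 0.03. Without JNKi replicate 1, the shallowest library, Chac1 differed by -0.46, and Farsb was the gene still called (-0.54, adjusted p = 0.0459). Without JNKi replicate 2, Chac1 was the gene still called (-1.06, adjusted p = 0.0094). Yars was also lost without replicate 1 or 2 of DMSO at 48 h (adjusted p = 0.054 for each) or of JNKi at 96 h (0.0551 and 0.0552). With no filter on low values the adjusted p was 0.0519 for Ddit3 and 0.0517 for Trib3. All 7 were also called by edgeR and by DESeq2 on the recovered reads, with adjusted p from 0.00677 to 0.0324 and from 0.000168 to 0.0404.

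Among the 28 further ATF4-linked genes 8 were lower with JNKi at 7 d and 0 higher, where 5.33% of all genes were lower and 4.84% higher, led by Atf3 at -1.50 ± 0.40 (SE; adjusted p = 0.0262) and Fgf21, a secreted stress hormone, at -1.30 ± 0.30 (SE; adjusted p = 0.0127). In the eIF2 list 2 of 16 were lower, Eif2b3 at -0.57 ± 0.11 (SE; adjusted p = 0.0041) and Ppp1r15b at -0.35 ± 0.10 (SE; adjusted p = 0.0304). Of the mitochondrial synthetases 2 of 17 were lower, Nars2 at -0.51 ± 0.12 (SE; adjusted p = 0.014) and Rars2 at -0.44 ± 0.10 (SE; adjusted p = 0.0108). Xbp1 was the 1 ER chaperone list gene of 14 that was lower, at -0.47 ± 0.11 (SE; adjusted p = 0.0124), a share near that of all genes. No scaffold gene or translation factor of the lists passed the test. Without replicate 1 of DMSO at 7 d, 0 genes of these 6 lists were lower, where 1.66% of all genes were. Without replicate 2 of that group, 12 of the 28 ATF4-linked genes, 3 of the ER chaperone list, 2 translation factors and 1 scaffold gene were lower, where 5.59% of all genes were. Without replicate 1 of JNKi at 7 d, 0 of the 28 were lower, and without replicate 2, 5. The summed epithelial markers were also lower in the JNKi libraries at 7 d, 109024 and 101488 against 134463 and 170321. Sums of other cell types' markers were higher in both JNKi libraries: 49.9 and 60.9 against 26.9 and 23.0 for leukocytes, 399.2 and 398.3 against 345.1 and 296.1 for endothelium, and 16.6 and 19.6 against 8.4 and 10.9 for adipocytes. Those of fibroblasts overlapped, 38.8 and 53.2 against 45.4 and 35.8. The leukocyte and adipocyte sums rest on few reads: 1 read was worth 2.77 in JNKi replicate 1 and 1.68 in DMSO replicate 1. Most of the endothelial sum was Cdh5, with a 7 d mean over both arms of 323.7, beside 18.7 for Pecam1 and 17.3 for Kdr. The part of these sums in the differences was not tested.

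Whether the JNKi difference at 7 d departs from that at 24 h was tested as an interaction. None of the 40 passed, where 2.10% of all genes did. At an unadjusted p under 0.05, 5 of the 40 were higher and 3 lower, where 16.5% of all genes differed. For Asns the difference moved from -0.70 at 24 h to -0.20 at 7 d (log2 difference 0.50 ± 0.23 SE, adjusted p = 0.282 for the change), and for Ddit3 from -0.02 to -0.86 (log2 difference -0.84 ± 0.36 SE, adjusted p = 0.246). Cbs had the lowest of these changes, -1.58 ± 0.57 (SE; adjusted p = 0.165), and Vldlr the next, -1.19 ± 0.31 (SE; adjusted p = 0.0569). DESeq2 on the recovered reads called 1 of the 40 higher (Psat1, 0.76, adjusted p = 0.022) and 1 lower (Vldlr, -1.15, adjusted p = 0.00784), and edgeR called 0. Vldlr was also called in limma without replicate 1 of DMSO at 24 h (-1.56, adjusted p = 0.012), replicate 2 of DMSO at 7 d or either JNKi library at 48 h, and Psat1 without either JNKi library at 72 h.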

How the data were processed

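RNA-seq of 20 NMuMG libraries was used. The submitters' processing notes name TopHat, HTSeq, DESeq and mm9, without versions. A strand setting is not given in the sources used here. The authors deposited normalized read counts per gene, a signal scale. In every library, all values were whole multiples of 1 step, within 0.1 read, which gave the depths. The time-course table was left out: in 95.7% of its 11405 genes with a cell of at least 100, neighbouring cells jump both ways between under 10 and over 100.

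Computed here: a limma trend fit (3.58.1, in R 4.3.3) on log2(value + 1), with 1 mean per group over 20 libraries. It took genes reaching a mean of 10 in any group, with Benjamini-Hochberg adjustment over 13896 genes. The fit was also run on simulated counts. Those had no spread shared between libraries, so they do not test the threshold on these data. edgeR 4.0.16 and DESeq2 1.42.0 on recovered reads were alternatives. Exon overlaps came from GENCODE vM21. Genes and lists were chosen with earlier results of these data known. Values by library were given for 15 listed genes, the 2 synthetases with the largest rise and fall at 7 d over time and between arms, and genes called between arms. The largest changes of each class or list were named, except 1 that is not reported here, and other genes with values (Cth, Cbs, Eprs, Pck2, Farsa) were chosen after their values were seen.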

Additional observations from a re-analysis of the deposited data

How the results depend on the processing

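The comparisons were recomputed under 10 other settings of pseudocount, filter, scaling, test and design, and with each of the 20 libraries left out. Of 121 calls among the 40 genes, 78 held under every alternative that could be run, 43 were lost under at least 1, and 0 changed sign. For 96 h against 24 h in DMSO, 30 of 36 calls held throughout. For JNKi against DMSO at 7 d, 0 of 7 did. DESeq2 gave no adjusted p for 1 of the 40 genes in several comparisons, and called 1 higher and 1 lower in the change of the JNKi difference from 24 h to 7 d.

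Leaving out single libraries gave 15 to 24 higher and 4 to 8 lower genes for DMSO at 7 d against 24 h, and 7 to 24 lower for DMSO at 7 d against 96 h. For JNKi at 7 d against 24 h it gave 3 to 6 lower. For JNKi against DMSO it gave 0 to 1 lower at 24 h, 0 to 5 higher at 72 h, 0 to 15 lower at 7 d and 0 to 1 lower for the mean over 24 h to 96 h, where the 1 came without replicate 2 of JNKi at 72 h. For the change from 24 h to 7 d it gave 0 to 1 higher and 0 to 1 lower. A lone library left in a group was assumed to vary like the other groups.

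Replicate numbers are shared between the arms. Over 9605 genes the replicate differences of both arms correlated by 0.73 (24 h), 0.59 (48 h), 0.72 (72 h) and 0.53 (96 h). At 7 d the correlation was 0.07, and for that reason the main fit did not take the numbers as pairs at any time. At 24 h to 96 h a spread that the arms share therefore stays in the error of the main fit. The replicate block below takes it out of the comparison of the arms. With a replicate block within each time, JNKi against DMSO gave 2 lower at 24 h (Asns, -0.70 with an adjusted p of 0.0273, and Psat1, -0.61 with 0.0331), 3 higher at 72 h (Psat1, Cth and Slc7a11), 15 lower and 1 higher at 7 d, Cbs among the lower (-1.20, adjusted p = 0.00153), 2 lower for the mean over 24 h to 96 h, and 3 higher and 3 lower for the change from 24 h to 7 d. Over all genes (13896 tested in the main fit) the same block fit called 3 lower and 16 higher at 24 h. It called 127 higher and 207 lower at 72 h, and 1852 lower and 1670 higher at 7 d. For the mean over 24 h to 96 h it called 345 higher and 433 lower. For the change from 24 h to 7 d it called 769 higher and 972 lower. With a replicate block over all times that change gave 2 lower, where 177 of all genes were higher and 280 lower. With either block the change of Cbs was called (-1.58, adjusted p = 0.00559 and 0.0292). The cause of these differences was not tested. The shallowest library, at 9.5 M reads, is 1 of the 2 JNKi libraries at 7 d.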
